A study of Mus musculus with 6 samples.

Results

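The tripartite motif (TRIM) proteins are a large family of mostly ubiquitin ligases, and their messenger RNAs were followed here in B16F10, a mouse melanoma cell line. The members were the rows of the deposited expression table whose symbol is TRIM followed by a number and at most 1 letter. These rows numbered 51 of 14915 in the table, after 1 symbol that was left out. One group was B16F10 cells carrying ZBTB5-S127A, in which a serine of the zinc finger and BTB domain factor ZBTB5 is replaced by alanine so that it cannot be phosphorylated (3 libraries, called S127A). It was set against B16F10 cells with wild-type ZBTB5 (3 libraries, called WT). All 6 libraries came from cells that received TNFα, an inflammatory cytokine, with limited amino acids. No untreated cells were analysed here, so a difference in the response to TNFα cannot be told apart from one present without it. The labels do not say how the S127A line was made, whether it is 1 clone, or whether replicates came from separate cultures, so p-values measure the spread between these libraries, which may be technical.

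A typical TRIM protein carries a RING domain, which recruits the ubiquitin-conjugating enzyme, then 1 or more B-boxes and a coiled coil, and a variable C-terminal domain that picks the substrate. The C-terminal domain sorts the family into classes, among them SPRY proteins (many of them antiviral), PHD-bromodomain proteins that read chromatin, COS-box proteins that bind microtubules, and NHL proteins. Many SPRY members are induced by interferon and act in the pathways that sense viral RNA and DNA, while others control transcription, muscle protein breakdown or centrosomes. Values are TPM, a transcript abundance that the authors normalised for gene length and library total, so levels can be compared between genes. A change is given as log2(TPM + 1) in S127A minus log2(TPM + 1) in WT, a scale that understates the change of low genes. Adjusted p-values are from limma, fitted over all 10348 genes with a mean of at least 1 TPM, with Benjamini-Hochberg adjustment and a threshold of 0.05.

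The libraries labelled S127A held little of the melanocyte marker RNA that defines B16F10. All 7 melanocyte markers tested were lower in S127A, with a summed level of 26.8 to 32.4 TPM in S127A libraries and 14911 to 15193.5 TPM in WT libraries. The melanocyte factors MITF (8.17 ± 0.487 TPM in S127A, 143 ± 9.67 TPM in WT, SD, n = 3 each) and SOX10 (0.603 ± 0.116 TPM in S127A, 341 ± 4.64 TPM in WT) were among them. Fibroblast markers summed to 301 to 313 TPM in S127A and 16.15 to 17.18 TPM in WT over 10 listed markers. COL1A2 made up most of the S127A sum (275 ± 6.56 TPM in S127A, 1.41 ± 0.164 TPM in WT). POSTN, the largest part of the WT sum, went the other way (0.0667 ± 0.0231 TPM in S127A, 7.79 ± 0.912 TPM in WT, log2 change −3.04, adjusted p = 6.03e-11), and LUM and THY1 were listed at 0 in the S127A libraries. Immune markers summed to 48.6 to 51.3 TPM in S127A and 7.20 to 8.28 TPM in WT over 6 listed markers. CD14 made up most of the S127A sum (45.1 ± 1.77 TPM in S127A, 0 TPM in each WT library). CD68, most of the WT sum, went the other way (4.69 ± 0.409 TPM in S127A, 7.64 ± 0.601 TPM in WT, log2 change −0.60, adjusted p = 2.35e-05). Only these 2 immune markers were tested, and the leukocyte marker PTPRC stood at 0.0567 TPM in S127A. Endothelial and epithelial markers summed to 63.7 to 64.2 TPM in S127A and 0.23 to 0.47 TPM in WT over 9 listed, nearly all of it KRT18. ZBTB5 itself stood at 8.90 ± 0.569 TPM in S127A and 15.5 ± 0.54 TPM in WT (log2 change −0.74, adjusted p = 5.46e-07), a level that does not show the substitution. The part of these shifts in cell identity in the TRIM results was not tested, and fewer cells of a type cannot be told apart from less RNA per cell.

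The promoters that carry known regulatory letters are shown first, because several of the genes below are interferon-inducible and the melanocyte factor MITF was low in S127A. RefSeq promoters (GRCm38.p6, 250 bases before to 50 after the gene start) were matched to 38 of the 51 members, 51 promoters in all. Trim2 supplied 5 of these promoters. No promoter was matched, and none searched, for TRIM3, TRIM8, TRIM11, TRIM14, TRIM16, TRIM17, TRIM29, TRIM33, TRIM35, TRIM36, TRIM50, TRIM55 and TRIM65. The core of the interferon response element, GAAANNGAAA on either strand, was found in 4 of these 51 promoters (7.84%) and in 3.44% of all 32851 mouse promoters of this length. The 4 genes were Trim21, Trim26, Trim5 and Trim2. The M-box TCATGTG, a motif recognised by MITF, was found on either strand in 3 member promoters (5.88%, against 3.77% of all promoters), those of Trim63, Trim2 and Trim40. The E-box CACGTG, which MITF can also bind, was found in 2 (3.92%, against 7.15%), those of Trim39 and Trim46. A match is a description of the letters and not a bound site. Capitals mark the matched letters, in Trim21 and Trim26 a run of 2 matches that overlap, and each sequence reads 5′ to 3′ along the gene's strand.
Trim21, chr7:102565433-102565732, minus strand: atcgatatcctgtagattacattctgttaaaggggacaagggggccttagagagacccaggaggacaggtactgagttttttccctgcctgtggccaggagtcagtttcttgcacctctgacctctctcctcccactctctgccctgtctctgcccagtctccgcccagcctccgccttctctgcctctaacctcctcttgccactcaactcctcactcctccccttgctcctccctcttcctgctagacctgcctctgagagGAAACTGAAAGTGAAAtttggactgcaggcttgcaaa
Trim26, chr17:36836896-36837195, plus strand: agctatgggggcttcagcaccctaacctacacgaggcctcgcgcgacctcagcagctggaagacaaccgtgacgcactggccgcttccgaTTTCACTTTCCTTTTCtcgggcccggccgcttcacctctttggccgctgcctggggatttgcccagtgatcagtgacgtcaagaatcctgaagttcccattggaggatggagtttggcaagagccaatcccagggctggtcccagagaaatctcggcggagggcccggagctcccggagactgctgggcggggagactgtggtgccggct
Trim5, chr7:104288057-104288356, minus strand: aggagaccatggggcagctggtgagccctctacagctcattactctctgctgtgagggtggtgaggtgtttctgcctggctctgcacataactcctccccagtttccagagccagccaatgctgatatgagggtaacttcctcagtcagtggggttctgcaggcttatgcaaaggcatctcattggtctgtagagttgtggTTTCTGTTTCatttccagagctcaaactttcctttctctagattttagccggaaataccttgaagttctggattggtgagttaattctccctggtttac
Trim2, chr3:84212789-84213088, minus strand: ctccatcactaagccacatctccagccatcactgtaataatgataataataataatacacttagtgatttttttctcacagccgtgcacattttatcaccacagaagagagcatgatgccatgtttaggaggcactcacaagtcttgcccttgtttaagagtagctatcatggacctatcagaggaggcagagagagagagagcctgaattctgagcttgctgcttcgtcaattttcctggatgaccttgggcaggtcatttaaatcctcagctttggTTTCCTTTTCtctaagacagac
Trim63, chr4:134314870-134315169, plus strand: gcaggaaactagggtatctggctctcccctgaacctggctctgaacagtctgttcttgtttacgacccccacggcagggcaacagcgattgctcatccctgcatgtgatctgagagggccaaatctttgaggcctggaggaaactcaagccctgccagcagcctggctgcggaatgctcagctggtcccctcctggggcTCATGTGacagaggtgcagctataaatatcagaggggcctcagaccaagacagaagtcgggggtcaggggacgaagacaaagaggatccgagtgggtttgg
Of the genes with the interferon element, TRIM21, TRIM26 and TRIM5 were higher in S127A and TRIM2 was lower. Of the genes with an M-box, TRIM63, where it begins 51 bases before the start, and TRIM2, where it lies in another promoter that is not shown, were lower in S127A. The remaining M-box gene, TRIM40, was too low to be tested and held 1.48 to 2.47 TPM in S127A libraries and 0 TPM in each WT library. Both genes with an E-box, TRIM39 and TRIM46, were higher in S127A.

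Of the 51 members, 34 averaged at least 1 TPM over the 6 libraries and were tested, and 17 were not. Among the 34 tested, 18 were higher in S127A, 14 were lower and 2 did not pass. Over all genes tested, 40.2% were called higher and 49.8% lower, 90.0% in all, so that 32 of 34 members called is close to that background. Changes of at least 2-fold were called in 11 members upward and 8 downward, against 15.5% and 19.9% of all genes (35.4% in all, against 55.9% of the tested members). TRIM6, TRIM16, TRIM47 and TRIM54 in WT, and TRIM62 and TRIM63 in S127A, averaged under 1 TPM. They passed the filter only through the group where they were high, which favours a large change. The shares and the medians below include them, and such genes were not counted over the whole table. The median size of the log2 change, whatever its sign, was 1.12 in the tested members and 0.69 over all tested genes. The median signed change was 0.36 in the members and −0.12 over all genes. The size of a log2 change depends on the pseudocount where a gene is low in a group, which the SE does not cover, and values with a pseudocount of 5 or 0.1 are given below where they differ by over 1.5 times. The groups did not overlap in 32 of the 34 tested members and in 90.2% of all tested genes. Quantile normalization moved the median of all genes to −0.003, and the calls of the 32 members kept their direction.

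**Figure D1:**
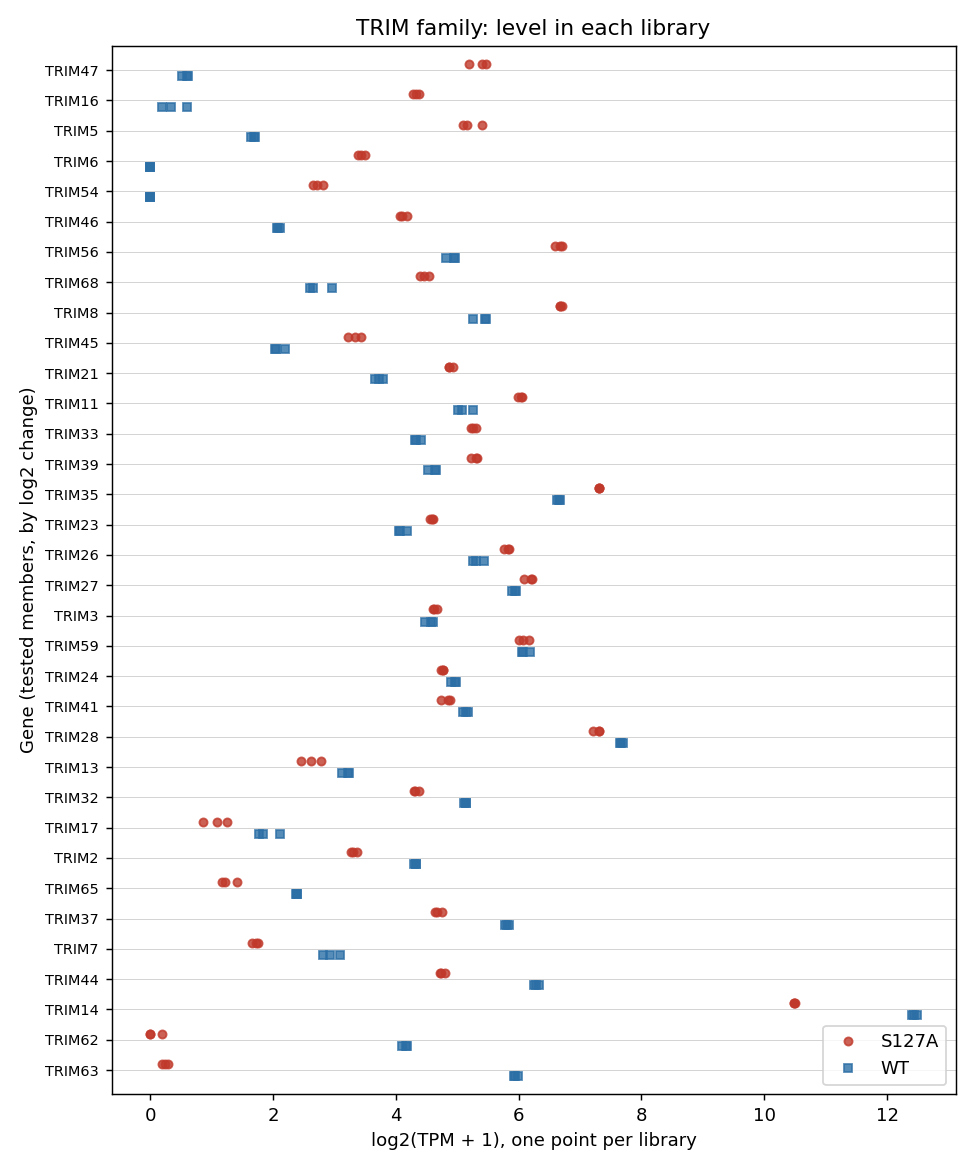
Level of each of the 34 tested TRIM genes, log2(TPM + 1) on the horizontal axis, in the 3 S127A libraries (red circles) and the 3 WT libraries (blue squares), ordered by log2 change. The groups lie far apart for TRIM47 at the top and TRIM63 at the bottom, and TRIM3 and TRIM59 are the 2 genes whose groups overlap.

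The level of the family was set by 1 gene. TRIM14, a mitochondrial adaptor of RNA-sensing signalling that lacks a RING domain, held 1426, 1432 and 1452 TPM in S127A libraries, against 5744, 5419 and 5528 TPM in WT libraries. By mean level it ranked 78 among all genes of the table in S127A and 6 in WT. The log2 change was −1.95 (SE 0.0296, adjusted p = 3.28e-13), a 3.87-fold difference of mean TPM. TRIM14 made up 53.9% ± 0.167 of the summed family level in S127A and 84.3% ± 0.359 in WT (SD, n = 3 each). The family summed to 2664 ± 19.5 TPM in S127A and 6600 ± 169 TPM in WT, whereas the other 50 members together summed to 1227 ± 7.61 TPM in S127A and 1036 ± 6.92 TPM in WT. With TRIM14 the family total was thus lower in each S127A library than in each WT library, and without it the total was higher in each S127A library.

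The annotation gives a limit on the level of TRIM14. Trim14 (ENSMUSG00000039853.18) lies on chromosome 4, 46493781 to 46536141, minus strand, mm10. Of its annotated exon bases 31.3% (1356 bases) overlap exons of Nans on the other strand, and 131 bases overlap a small nucleolar RNA gene. Whether the counting used strand is not given in the sources used here, so reads of the overlapping genes may not be told apart. NANS, a sialic acid synthase, stood at 65.4 ± 1.91 TPM in S127A and 92.8 ± 2.35 TPM in WT. These levels do not show to which gene reads in the shared bases were assigned. The share of reads in the overlap was not tested.

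**Figure D2:**
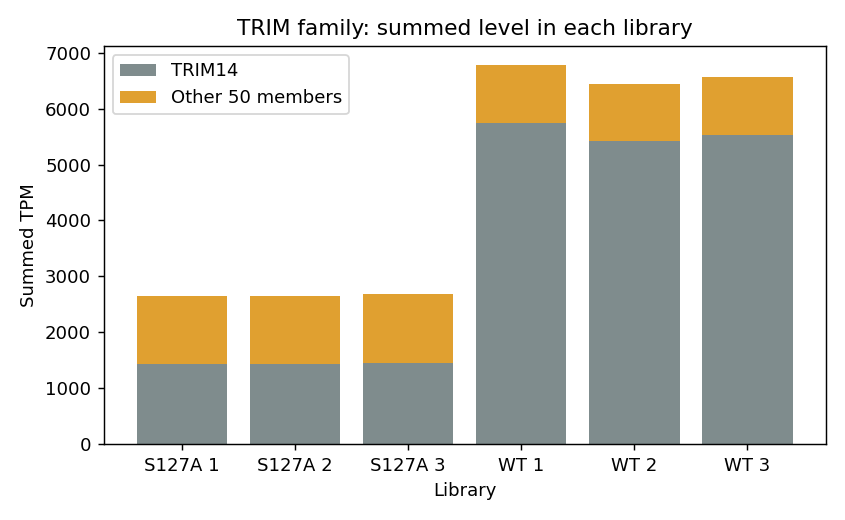
Summed TPM of the TRIM family in each library, TRIM14 in grey and the other 50 members in orange. The S127A libraries total 2651 to 2686 TPM and the WT libraries 6448 to 6781 TPM, and the orange part is slightly taller in S127A.

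Below TRIM14 the order of levels differed between the groups. In S127A the next members were TRIM35 (157 ± 0.491 TPM), TRIM28 (155 ± 5.95 TPM), TRIM8 (102 ± 1.22 TPM), TRIM56 (99.9 ± 4.33 TPM), TRIM27 (71.0 ± 3.6 TPM) and TRIM59 (66.7 ± 3.91 TPM). TRIM35 and TRIM28 overlapped in range in S127A, as did TRIM8 and TRIM56, and also TRIM27 and TRIM59. TRIM59 also overlapped in range with TRIM11, the member after it (64.4 ± 1.33 TPM in S127A). The order within each of these pairs is not set. In WT the order was TRIM28 (203 ± 3.23 TPM), TRIM35 (99.3 ± 1.97 TPM), TRIM44 (77.1 ± 1.99 TPM), TRIM59 (67.9 ± 3.42 TPM), TRIM63 (60.8 ± 1.45 TPM), TRIM27 (59.9 ± 1.64 TPM) and TRIM37 (55.3 ± 1.14 TPM). TRIM63 and TRIM27 overlapped in range in WT. A mean of 10 TPM or more was reached by 24 members in S127A and 22 in WT.

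Of 10 listed interferon-related and antiviral members, 7 were tested, and 5 of them were higher and 2 lower in S127A, where 40.2% of all tested genes were higher and 49.8% lower. TRIM5, the capsid-binding restriction factor of primates, held 41.4, 33.0 and 34.8 TPM in S127A libraries, against 2.26, 2.22 and 2.14 TPM in WT libraries (log2 change 3.54, SE 0.0809, adjusted p = 7.94e-12). TRIM6, which makes unanchored ubiquitin chains that activate the kinase IKKε, held 9.77, 9.49 and 10.3 TPM in S127A libraries and was listed at 0 in the 3 WT libraries. The groups lay far apart for both genes, and TRIM6 has no fold because of the zeros (fitted log2 change 3.44, 6.64 with a pseudocount of 0.1 and 1.57 with 5, adjusted p = 3.02e-12). The mouse genome holds several related genes beside Trim5 and Trim6 on chromosome 7 (Trim12a, Trim12c, Trim30a and others), which were not analysed here. How reads were divided among them is not given, so the levels of TRIM5 and TRIM6 are uncertain.

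Of the other antiviral members, TRIM56, an interferon-inducible ligase that acts on the DNA-sensing adaptor STING, held 104, 95.2 and 101 TPM in S127A libraries, against 27.3, 30.4 and 29.8 TPM in WT libraries (log2 change 1.74, SE 0.0497, adjusted p = 4.87e-11). TRIM21, the cytosolic antibody receptor, held 29.4, 28.3 and 28.0 TPM in S127A libraries, against 12.9, 11.7 and 12.3 TPM in WT libraries (log2 change 1.15, adjusted p = 2.39e-09). All S127A libraries stood above all WT libraries for both genes. TRIM26, a regulator of interferon production, rose to 55.1 ± 1.68 TPM in S127A, against 39.4 ± 2.69 TPM in WT (log2 change 0.48, adjusted p = 4.77e-06). TRIM65, which ubiquitinates the RNA sensor MDA5, went the other way with TRIM14, and held 1.68, 1.26 and 1.33 TPM in S127A libraries, against 4.17, 4.24 and 4.27 TPM in WT libraries (log2 change −1.11, adjusted p = 1.68e-07, and −0.52 with a pseudocount of 5). TRIM31, TRIM38 and TRIM40 were below the mean needed for a test. TRIM40 held 2.47, 1.48 and 1.65 TPM in S127A libraries and 0 TPM in each WT library, and the other 2 stayed at or below 0.22 TPM in every library.

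**Figure D3:**
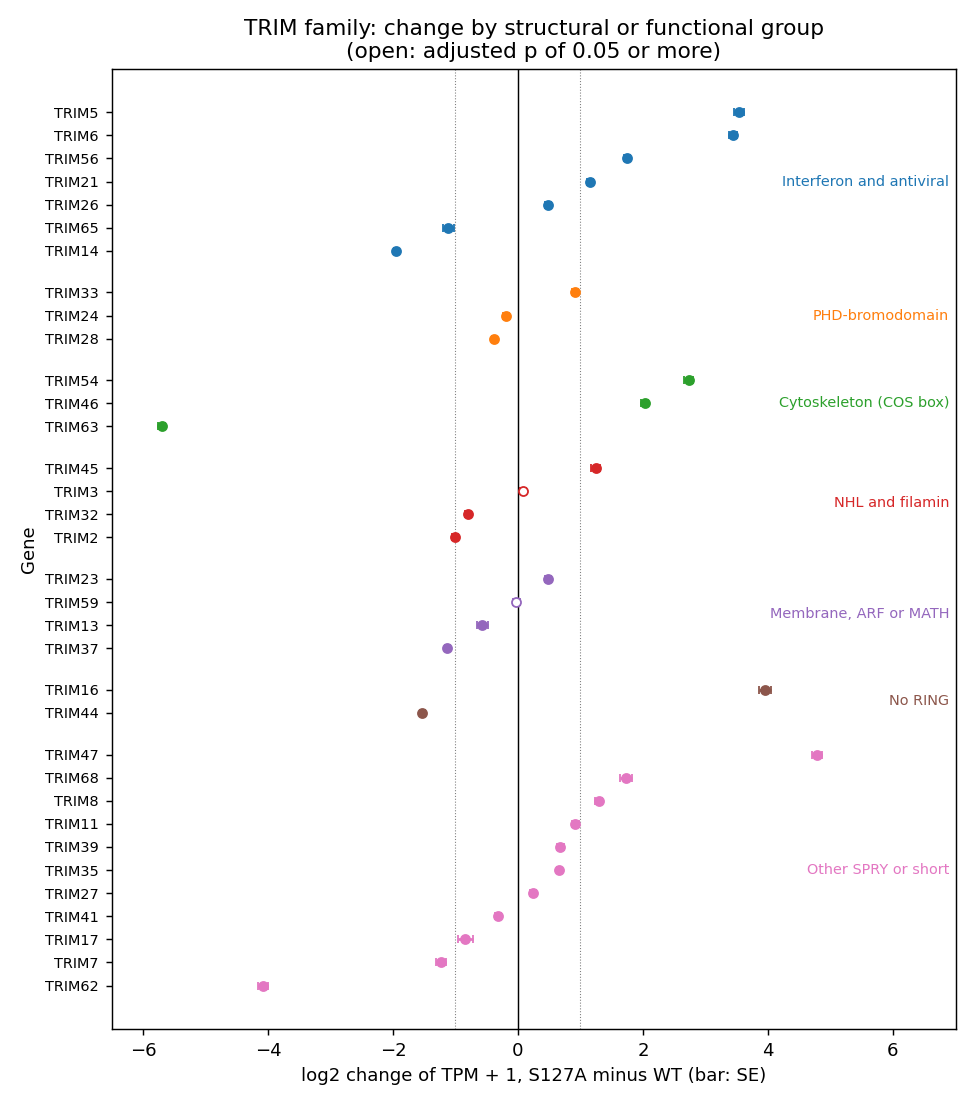
log2 change of TPM + 1, S127A minus WT, with its standard error, for the 34 tested members grouped by class. Filled points passed an adjusted p of 0.05, open points (TRIM3, TRIM59) did not, and dotted lines mark 2-fold. Each class with more than 1 call holds members on both sides of 0.

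Of the 3 tested PHD-bromodomain members, 1 was higher and 2 were lower in S127A. TRIM33, a ligase that acts in SMAD signalling, rose to 37.4 ± 1.12 TPM in S127A, against 19.4 ± 0.714 TPM in WT (log2 change 0.91, adjusted p = 7.23e-09, and 1.01 with TMM factors). TRIM28, the KAP1 co-repressor through which KRAB zinc finger proteins silence retroelements, fell to 155 ± 5.95 TPM in S127A, against 203 ± 3.23 TPM in WT (log2 change −0.39, adjusted p = 8.92e-07, and −0.23 with quantile normalization). TRIM24, a histone reader, held 26.0 ± 0.386 TPM in S127A and 29.9 ± 0.935 TPM in WT (log2 change −0.19, adjusted p = 0.00154, and −0.10 with TMM factors). The groups did not overlap in these 3 genes, and TRIM66, too low to be tested, held 0.26, 0.24 and 0.32 TPM in S127A libraries, against 0.01, 0.04 and 0.04 TPM in WT libraries.

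The microtubule and muscle class held opposite changes. TRIM63 (MuRF1, a ligase of muscle protein breakdown) fell to 0.14, 0.23 and 0.19 TPM in S127A libraries, against 62.4, 59.6 and 60.4 TPM in WT libraries (log2 change −5.70, SE 0.0605, adjusted p = 3.18e-14, and −3.66 with a pseudocount of 5). This is a 326-fold difference of mean TPM, and the gene (ENSMUSG00000028834.13) lies on chromosome 4, 134315120 to 134329629, plus strand, mm10. TRIM46, which organises microtubules at the start of the axon, rose to 16.1, 15.8 and 17.1 TPM in S127A libraries, against 3.19, 3.31 and 3.26 TPM in WT libraries (log2 change 2.03, adjusted p = 6.72e-11). TRIM54 (MuRF3), a relative of TRIM63, held 6.01, 5.61 and 5.32 TPM in S127A libraries and was listed at 0 in each WT library (fitted log2 change 2.73, 5.84 with a pseudocount of 0.1 and 1.09 with 5, adjusted p = 3.55e-11). The 2 muscle ligases thus stood high in different groups. Antisense annotation covers 26.6% of the exon bases of Trim54, so its level is uncertain without strand. TRIM9, TRIM36, TRIM42, TRIM55 and TRIM67 were not tested, and stayed at or below 0.75 TPM, with TRIM55 listed at 0 in all 6 libraries.

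In the NHL and filamin class 1 of the 4 tested members was higher and 2 were lower. TRIM45 rose to 9.85, 9.09 and 8.36 TPM in S127A libraries, against 3.12, 3.58 and 3.10 TPM in WT libraries (log2 change 1.24, adjusted p = 4.21e-08, and 0.77 with a pseudocount of 5). TRIM2, a ligase of neurons that acts on the neurofilament light chain, fell to 9.32, 8.68 and 8.83 TPM in S127A libraries, against 19.2, 18.6 and 19.2 TPM in WT libraries (log2 change −1.01, adjusted p = 9.38e-09). TRIM32, mutated in a limb-girdle muscular dystrophy, fell to 19.1 ± 0.57 TPM in S127A, against 34.1 ± 0.508 TPM in WT (log2 change −0.81, adjusted p = 1.31e-08). TRIM3, a brain-rich ligase, held 23.6, 23.3 and 24.6 TPM in S127A libraries, against 21.2, 23.4 and 22.8 TPM in WT libraries, and the groups overlapped (log2 difference 0.08, SE 0.0515, adjusted p = 0.141, exact permutation p = 0.2, two-sided). Rescaling brought TRIM3 past the threshold, at 0.18 after TMM factors (adjusted p = 0.00815), 0.15 after quantile normalization (adjusted p = 0.0175) and 0.14 after scaling to a common total (adjusted p = 0.0276), and its adjusted p spanned 0.00815 to 0.423 across 16 alternatives. TRIM71 (LIN41), a repressor of messenger RNAs in stem cells, was not tested and held 0.16, 0.14 and 0 TPM in S127A libraries, against 1.56, 1.63 and 1.58 TPM in WT libraries.

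Of the 4 tested members with a membrane anchor, an ARF domain or a MATH domain, 1 was higher and 2 were lower in S127A. TRIM37, a ligase of peroxisomes and centrosomes, fell to 25.9, 23.9 and 24.4 TPM in S127A libraries, against 54.1, 56.4 and 55.2 TPM in WT libraries (log2 change −1.13, adjusted p = 6.31e-10). TRIM13, an anchored ligase of the endoplasmic reticulum, fell to 5.20 ± 0.695 TPM in S127A, against 8.16 ± 0.413 TPM in WT (log2 change −0.57, adjusted p = 7.88e-05, and −0.37 with a pseudocount of 5 or with quantile normalization). TRIM23, which carries the ARF domain, rose to 23.0 ± 0.384 TPM in S127A, against 16.2 ± 0.894 TPM in WT (log2 change 0.48, adjusted p = 5.25e-06). TRIM59, an anchored member, held 70.9, 66.1 and 63.1 TPM in S127A libraries, against 71.9, 65.8 and 66.1 TPM in WT libraries, and did not pass (log2 difference −0.026, SE 0.0506, adjusted p = 0.638, exact permutation p = 0.7, two-sided). For a single gene with 3 against 3 libraries the smallest exact p is 0.1, which the 32 members whose groups do not overlap reach.

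The members grouped here for lack of a RING domain were TRIM16, TRIM44 and TRIM29, of which TRIM16 was higher and TRIM44 lower in S127A. This group is not a full list of members without a RING domain, as TRIM14 was placed with the antiviral members. TRIM16, which acts with galectin-3 in the clearance of damaged lysosomes, held 18.4, 19.2 and 19.9 TPM in S127A libraries, against 0.27, 0.15 and 0.51 TPM in WT libraries (log2 change 3.95, SE 0.0973, adjusted p = 1.45e-11, and 2.18 with a pseudocount of 5). The gene (ENSMUSG00000047821.16) lies on chromosome 11, 62820231 to 62850808, plus strand, mm10. TRIM44, a regulator with a ubiquitin protease-type zinc finger, fell to 27.0, 25.4 and 25.7 TPM in S127A libraries, against 75.3, 76.7 and 79.3 TPM in WT libraries (log2 change −1.53, adjusted p = 2.82e-11). TRIM29, known for binding p53, was not tested, and was listed at 0 in the S127A libraries with 0.04 to 0.13 TPM in WT libraries.

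Among the remaining members, most of them SPRY ligases, 7 of 11 tested were higher and 4 lower, against 40.2% and 49.8% of all tested genes. TRIM47, a SPRY ligase, rose to 35.6, 41.3 and 43.4 TPM in S127A libraries, against 0.54, 0.43 and 0.51 TPM in WT libraries (log2 change 4.78, SE 0.0802, adjusted p = 6.87e-13, and 3.03 with a pseudocount of 5), an 81.3-fold difference of mean TPM. TRIM68, a ligase that binds the androgen receptor, rose to 19.9, 22.3 and 21.1 TPM in S127A libraries, against 5.28, 6.77 and 5.08 TPM in WT libraries (log2 change 1.73, adjusted p = 9.4e-09). TRIM8, a SOCS1-binding regulator of cytokine signalling, rose to 101, 103 and 102 TPM in S127A libraries, against 43.2, 37.4 and 43.0 TPM in WT libraries (log2 change 1.29, adjusted p = 1.07e-09). In these 3 genes every S127A library stood above every WT library. Smaller rises that passed were those of TRIM11, TRIM39, TRIM35 and TRIM27. TRIM11, which promotes the clearance of misfolded proteins, held 64.4 ± 1.33 TPM in S127A and 33.7 ± 3.04 TPM in WT (log2 change 0.92). TRIM39 held 38.0 ± 1.57 TPM in S127A and 23.4 ± 1.2 TPM in WT (log2 change 0.68), and TRIM35 held 157 ± 0.491 TPM in S127A and 99.3 ± 1.97 TPM in WT (log2 change 0.66). TRIM27, a ligase of endosomal recycling, held 71.0 ± 3.6 TPM in S127A and 59.9 ± 1.64 TPM in WT (log2 change 0.24). The adjusted p of these 4 genes ran from 2.53e-09 (TRIM35) to 0.000324 (TRIM27).

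The falls in this class were led by TRIM62 (DEAR1), a ligase tied to epithelial polarity, which was listed at 0 in S127A replicates 1 and 2 and at 0.15 TPM in replicate 3, against 16.2, 17.1 and 17.0 TPM in WT libraries (log2 change −4.08, SE 0.0783, adjusted p = 1.92e-12, −6.96 with a pseudocount of 0.1 and −2.11 with 5). It (ENSMUSG00000041000.8) lies on chromosome 4, 128883580 to 128911328, plus strand, mm10. TRIM7, which binds the glycogen primer glycogenin, fell to 2.16, 2.39 and 2.30 TPM in S127A libraries, against 7.56, 6.08 and 6.64 TPM in WT libraries (log2 change −1.24, adjusted p = 6.83e-08, and −0.69 with a pseudocount of 5). TRIM17, a ligase of neuronal apoptosis, held 1.10 ± 0.281 TPM in S127A and 2.77 ± 0.492 TPM in WT (log2 change −0.84, adjusted p = 4.73e-05, −1.27 with a pseudocount of 0.1, −0.35 with 5 and −0.44 with quantile normalization), and 19.0% of its exon bases are shared with a histone gene on the same strand. TRIM41, which degrades protein kinase C, fell to 27.3 ± 1.39 TPM in S127A, against 34.2 ± 1.06 TPM in WT (log2 change −0.31, adjusted p = 0.000108). The members of this class below the filter were TRIM10, TRIM15, TRIM50, TRIM58, TRIM69 and TRIM72. TRIM10 was listed at 0 in the S127A libraries with 0.85 to 1.52 TPM in WT libraries, and TRIM72, with 27.6% of its exon bases under antisense annotation, held 1.02 to 1.52 TPM in S127A libraries and 0 TPM in each WT library. The other 4 stayed at or below 1.06 TPM in every library. Smaller overlaps with other genes cover 5.19% of the exon bases of Trim16, 6.30% of Trim46 and 6.46% of Trim7.

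Members that are neighbours in the genome did not always move together. Within 100 kb of each other lay 4 pairs of tested members. Trim47 and Trim65 on chromosome 11 overlap by 225 exon bases on the same strand, yet TRIM47 rose (4.78) and TRIM65 fell (−1.11) on the log2 scale. Trim17 and Trim11, 4.99 kb apart on chromosome 11, also went opposite ways (−0.84 and 0.92). Trim41 and Trim7, 8.79 kb apart on chromosome 11, both fell (−0.31 and −1.24), and Trim6 and Trim5, 28.2 kb apart on chromosome 7, both rose (3.44 and 3.54). The 5 members side by side on chromosome 17 were Trim26, Trim15, Trim10, Trim40 and Trim31. Of these TRIM26 alone reached the filter.

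**Figure D4:**
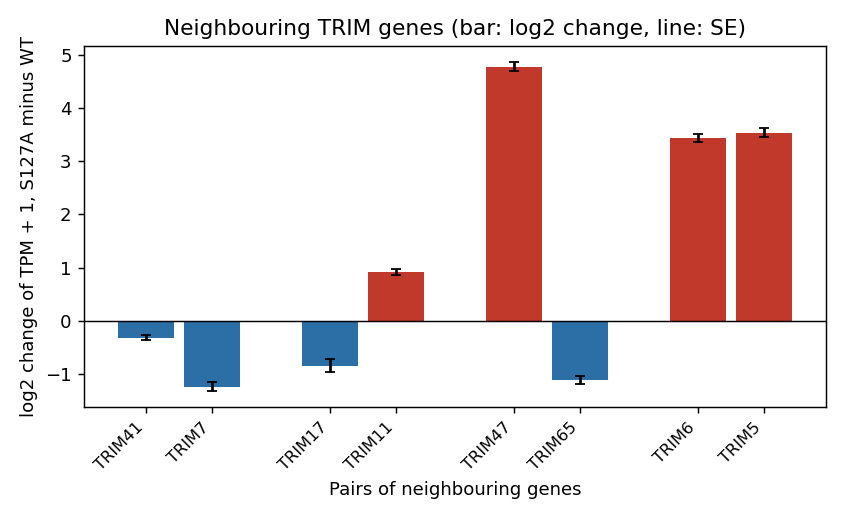
log2 change of TPM + 1, S127A minus WT, with its standard error, for the 4 pairs of tested TRIM genes that lie within 100 kb of each other (red, higher in S127A; blue, lower). The pairs TRIM17 with TRIM11 and TRIM47 with TRIM65 point in opposite directions.

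Genes of the family that carry other names, and the proteins TRIM ligases work with, also moved in both directions. PML (also known as TRIM19), which builds nuclear bodies and is induced by interferon, rose to 79.1 ± 1.62 TPM in S127A, against 36.8 ± 0.878 TPM in WT (log2 change 1.08, adjusted p = 2.15e-10). MID1, a microtubule-bound COS-box ligase, fell to 14.6 ± 0.416 TPM in S127A, against 45.3 ± 1.88 TPM in WT (log2 change −1.57), and its relative MID2 held 9.30 ± 0.0351 TPM in S127A and 10.4 ± 0.528 TPM in WT (log2 change −0.14, adjusted p = 0.0387). Of 12 ubiquitin-conjugating enzymes used by TRIM ligases, 6 were higher and 4 lower in S127A, with a median log2 change of 0.11. Of all tested genes, 40.2% were higher and 49.8% lower, with a median of −0.12. UBE2W, which places ubiquitin on N-termini, rose to 56.1 ± 2.58 TPM in S127A, against 25.9 ± 2.17 TPM in WT, and UBE2V1, which builds signalling chains together with UBE2N, fell to 128 ± 4.38 TPM in S127A, against 256 ± 3.35 TPM in WT. UBE2E3 fell by 0.77 and UBE2E2 rose by 0.54 on the log2 scale.

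Of 12 partners of TRIM28 in gene silencing, 3 were higher and 8 lower in S127A, against 40.2% and 49.8% of all tested genes. Their median log2 change was −0.48, against −0.12 over all genes. The chromatin remodeller CHD4 fell to 111 ± 1.02 TPM in S127A, against 336 ± 3.91 TPM in WT, and UHRF1, which maintains DNA methylation, fell to 118 ± 1.9 TPM in S127A, against 299.6 ± 1.39 TPM in WT. The deacetylase HDAC2 fell by 1.31 and the heterochromatin protein CBX1 by 0.91 on the log2 scale. SETDB1, the histone methyltransferase that TRIM28 recruits, went the other way and rose to 48.7 ± 0.862 TPM in S127A, against 34.9 ± 0.523 TPM in WT (named after its values were seen). Innate signalling partners of the antiviral TRIM proteins numbered 15, of which 9 were higher and 5 lower (median log2 change 0.48). Over all tested genes 40.2% were higher and 49.8% lower, with a median of −0.12. IRF7, the interferon-inducible transcription factor, rose to 304 ± 11.3 TPM in S127A, against 4.31 ± 1.01 TPM in WT (log2 change 5.86), and IKBKE, the kinase that TRIM6 chains activate, rose to 133 ± 5.82 TPM in S127A, against 17.6 ± 1.27 TPM in WT (log2 change 2.85). STAT2 rose by 2.04 and IRF9 by 1.45 on the log2 scale. In the same S127A libraries CD14 stood at 45.1 TPM and COL1A2 at 275 TPM, and the part of other cell types in these levels was not tested.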

How the data were processed

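RNA-seq libraries of TNFα-treated B16F10 cells (3 S127A, 3 WT) were grouped by their titles. A single table of TPM by gene symbol was deposited, per the file headers. The submitters' processing notes name mm10 as the build. The sources used here do not give the aligner, quantifier, strand setting or origin of the upper-case symbols. Columns summed to 831872 ± 1326 TPM in S127A and 863992 ± 903 TPM in WT, so part of the total lies outside the table. TPM keeps no depth, so depth is unknown, and errors are those between replicates.

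The test was limma 3.58.1 (R 4.3.3) on log2(TPM + 1), with a pseudocount of 1, for genes averaging at least 1 TPM (mean-variance trend, genotype as the only term, two-sided). Benjamini-Hochberg adjustment ran over all 10348 genes, at 0.05. The fit was tested on simulated data. That simulation changed few genes, all upward, so it does not cover data in which most genes are called in both directions. Exact permutation tests used scipy 1.17.1. TMM factors were unweighted trimmed means computed on TPM. Positions and exon overlaps come from GENCODE M21 (mm10), in which all 51 symbols matched 1 gene each. This match, like that of the promoters, was by name with letter case ignored. It does not show which mouse gene a row was counted from. The members, gene lists and tests were chosen with earlier results of these data known. Members called at least 2-fold are given per library, other tested members by group, and from each partner list up to 4 called genes with the largest change and at least 5 TPM in a group. The alternatives were other pseudocounts, filters, scalings, limma settings, a block for the replicate number, and omission of each library in turn.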

Additional observations from a re-analysis of the deposited data

How the results depend on the processing

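Calls of the 32 members kept their direction and passed under each of the 16 alternatives in which they were tested. The number of members at least 2-fold lower was 8, and was 5 with a pseudocount of 5 and 5 with quantile normalization, where TRIM2, TRIM7 and TRIM65 came under 2-fold in both. The number at least 2-fold higher was 11, and was 9 with a pseudocount of 5, where TRIM21 and TRIM45 came under 2-fold. Across the 16 alternatives it ran from 9 to 13. Leaving out each library in turn gave 7 to 9 members lower and 11 to 12 higher at least 2-fold, 18 to 19 higher and 14 to 15 lower in all, and 9123 to 9211 genes called. With no filter 50 members were tested, 23 higher and 21 lower, where 10593 of 14385 genes were called, 4876 higher and 5717 lower. TRIM59, which did not pass, changed sign with TMM factors (0.068), quantile normalization (0.053) and a common total (0.028), and ranged from −0.070 to 0.015 when each library was left out, positive without S127A replicate 3 (0.013) or WT replicate 1 (0.015). The cause was not tested. Deviations from the group mean correlated across genes at r = 0.117, 0.0174 and 0.0279 between same-numbered S127A and WT libraries. Between differently numbered libraries r ran from −0.0757 to 0.0544. With 3 libraries per group these values cannot decide whether the numbers pair the libraries. A replicate block gave 18 members higher, 14 lower and 9339 genes called. The unknown depth limits what can be said of members under 1 TPM.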

Other observations

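The table also holds the symbol TRIM6-TRIM34, which the rule on symbols does not cover and which was named after its values were seen. It held 28.9, 24.5 and 25.6 TPM in S127A libraries and 0 TPM in each WT library as listed. CORO2A, the neighbour of Trim14 on its other side, stood at 13.4 ± 0.586 TPM in S127A and 0.173 ± 0.127 TPM in WT (log2 change 3.63, adjusted p = 1.3e-11), opposite in direction to TRIM14.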
